A study of Mus musculus with 10 samples.

Results

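Ciliated cells made up 222 of the 30599 Ptprc-negative cells (0.726%) in 10 single-cell RNA-seq libraries of sorted mouse lung epithelium. They were chosen by measured values: a barcode entered with at least 1000 genes, at most 50000 unique molecular identifiers (UMIs, 1 for each captured transcript), at most 15% mitochondrial UMIs, no UMI of Ptprc (the pan-leukocyte gene CD45) and a UMI of at least 3 of Foxj1, Ccdc153, Tmem212, Dynlrb2 and Rsph1. Of 42012 deposited barcodes, 32698 passed the depth filters. All 5 genes were present in 166 of the ciliated cells, 4 in 43 and 3 in 13.

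The libraries came from adult mice carrying Sftpc-CreERT2, a tamoxifen-inducible Cre under the promoter of the surfactant protein C gene, which is used to mark alveolar type II (AT2) cells. Every mouse received 3 tamoxifen doses of 0.2 mg per g body weight. In the Red2Kras line, RFP marks recombined cells that are mutant and YFP marks recombined cells that stay wildtype; EpCAM+ cells of either colour were sorted at 4 days or 2 weeks, with 2 libraries for each colour and time (8 in all). In the R26R-Confetti line both colours are wildtype, and it gave 1 RFP and 1 YFP library, whose time point the labels do not state and the study's methods give as 2 weeks. Lungs were pooled within a sample, and the study's own analysis discarded clusters with Foxj1. Ciliated cells are thus cells that entered a sort for lineage-labelled EpCAM+ cells, and whether their own genome had recombined was not measured.

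Multiciliated cells line the conducting airways and clear mucus by the beating of their many motile cilia. Each motile cilium holds an axoneme, a ring of doublet microtubules around a central pair, bent by dynein arms and coordinated by radial spokes and nexin links. In the airway these cells arise from secretory (club) and basal cells rather than from AT2 cells, through a transcriptional cascade in which Gmnc, Mcidas, Myb, Foxj1 and the RFX factors act in turn.

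The label held against 12 cilia genes that played no part in the choice (Dnah5, Dnah9, Dnai1, here named Dnaic1, Tekt1, Tekt4, Cfap43, Cfap52, Hydin, Spag6l, Tppp3, Sec14l3 and Rsph4a). A ciliated cell held a UMI of a median of 7 of them (range 0 to 12), and 189 of 222 cells held 5 or more, against 0 of the 30377 other Ptprc-negative cells. Cells just inside and just outside the rule differed in these genes too. The 13 cells with exactly 3 rule genes held a median of 5 of the 12 at a median depth of 4110 UMIs, whereas the 54 cells with exactly 2 held a median of 1 at 11057 UMIs, and 20 of those 54 came from 1 library, 2 weeks RFP replicate 1. A single rule gene was present in another 4208 cells, and in 3834 of them it was Dynlrb2. The rule also left out 14 barcodes with Ptprc and 31 that failed a depth filter yet had 3 or more of the genes.

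A promoter string that the rule did not use was counted in genes of the motile cilium. RFX factors bind the X-box, whose core reads GTTGCC, and this string was searched on both strands in a window from 250 bases before to 50 after each gene's annotated start (RefSeq promoter table, GRCm38.p6). Of the 153 genes on the 10 cilia lists described here 122 had a window, and it was present in 51 of them (41.8%), against 12.7% of all 27025 windows and 13.8% of the windows of the other gene lists. The longer GTTGCCA, which contains the first string, was in 22.1% of the cilia windows and 4.46% of all windows. A forkhead string, GTAAACA, was in 3.28% of the cilia windows and 3.55% of all windows. These are counts of letters, not of bound sites. For 107 of the 122 windows, bases shortly after the annotated start occurred somewhere in a transcript of the same gene in the gene annotation. The start positions themselves were not compared.

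The stretches upstream of 3 rule genes and of 2 further cilia genes with a pair of matches each are shown to let these matches be seen; each reads 5′ to 3′ on the gene's own strand, with GTTGCC or its reverse complement in capitals. Ccdc153 (chr9:44240517-44240675, + strand), a coiled-coil gene, has its match starting 152 bases before the start.
Ccdc153: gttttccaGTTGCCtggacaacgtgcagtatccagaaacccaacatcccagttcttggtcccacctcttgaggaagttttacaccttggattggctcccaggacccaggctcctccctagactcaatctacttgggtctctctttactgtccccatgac
Dynlrb2 (chr8:116504855-116504973, + strand), a dynein light chain of the roadblock family, has its match 51 bases before the start.
Dynlrb2: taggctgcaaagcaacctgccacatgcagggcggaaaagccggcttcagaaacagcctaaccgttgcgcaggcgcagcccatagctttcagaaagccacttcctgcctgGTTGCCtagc
Tmem212 (chr3:27896369-27896528, - strand), which encodes a membrane protein, has no match in the stretch.
Tmem212: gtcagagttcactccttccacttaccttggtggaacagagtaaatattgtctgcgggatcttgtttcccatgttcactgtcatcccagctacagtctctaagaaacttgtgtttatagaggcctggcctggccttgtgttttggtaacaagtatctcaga
Fam183b (chr11:58801961-58802120, - strand), a gene of motile cilia, has matches 67 and 16 bases before the start.
Fam183b: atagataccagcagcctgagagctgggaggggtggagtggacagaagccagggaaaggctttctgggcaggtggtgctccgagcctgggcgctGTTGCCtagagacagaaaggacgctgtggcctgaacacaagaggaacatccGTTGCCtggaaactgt
Tekt1 (chr11:72361883-72362042, - strand), a tektin inside the doublet microtubules, has matches 35 and 15 bases before the start, the first of them on the opposite strand.
Tekt1: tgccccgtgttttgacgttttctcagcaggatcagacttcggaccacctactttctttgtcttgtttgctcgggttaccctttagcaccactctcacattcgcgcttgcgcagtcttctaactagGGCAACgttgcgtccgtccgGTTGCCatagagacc

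Depth differed between libraries. Deposited UMIs ranged from 10742481 to 79927159 per library, and the median depth of ciliated cells from 3581 UMIs (2 weeks YFP replicate 2) up to 22982 for the 5 cells of 2 weeks RFP replicate 1. Over all libraries ciliated cells had a median of 4982 UMIs and the other Ptprc-negative cells 5521. Of 41773 distinct barcode sequences, 239 occurred in more than 1 library; 1 of them belonged to a ciliated cell, and no barcode belonged to ciliated cells of more than 1 library. Replicate libraries also differed in the sex of their mice, as given below. Levels are counts per 1000000 UMIs (CPM) of the summed ciliated cells of a library, with Scgb1a1 left out of the total, and are given as mean ± SD over the 10 libraries. Values are compared for the same gene between cells, not between genes.

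Ciliated cells were present in every library. The shares of Ptprc-negative cells were 0.715% in Confetti RFP (28 cells) and 1.19% in Confetti YFP (49 cells). At 4 days, RFP replicates 1 and 2 held 0.526% (20 cells) and 1.33% (21 cells), and YFP replicates 1 and 2 held 1.59% (29 cells) and 0.468% (14 cells). At 2 weeks, RFP replicates 1 and 2 held 0.122% (5 cells) and 0.813% (23 cells), and YFP replicates 1 and 2 held 0.348% (15 cells) and 1.58% (18 cells). Replicates of 1 group stood further apart than the group means, and the lowest value, with an exact 95% binomial interval of 0.0396% to 0.285%, came from the library with the most deposited UMIs. Intervals on single libraries cover counting error only.

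**Figure D1:**
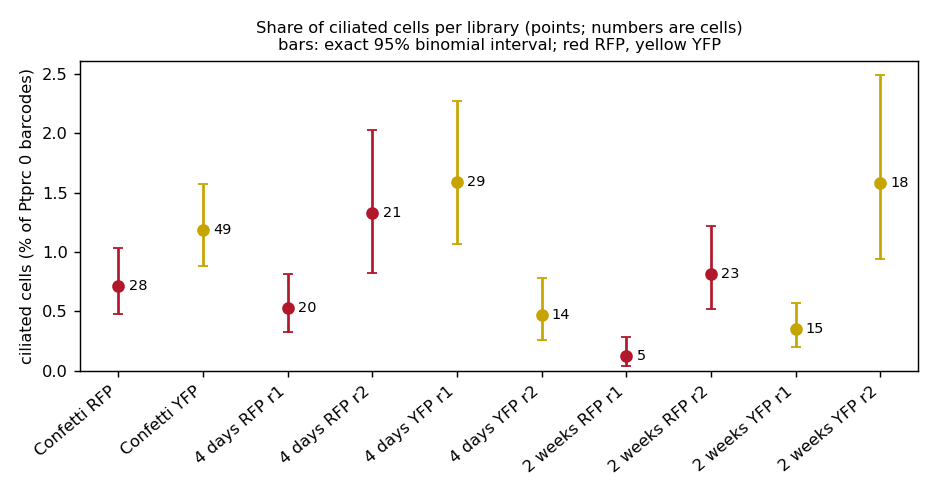
Ciliated cells as a percent of Ptprc-negative cells (y axis) in each of the 10 libraries (x axis), red for RFP and yellow for YFP; bars are exact 95% binomial intervals and the numbers are cells. Replicates 1 and 2 of each Red2Kras group lie far apart, from 0.122% to 1.59% over the 8 libraries, and both colours span most of that range.

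No comparison of shares passed an exact permutation test over libraries (two-sided, adjusted by Benjamini-Hochberg over the 3 comparisons). In Red2Kras libraries the share was 0.698% ± 0.508 (SD, n = 4) in RFP and 0.997% ± 0.681 (SD, n = 4) in YFP, a difference of -0.299 percentage points (exact p = 0.514, adjusted p = 0.814). At 2 weeks it was 0.716% ± 0.645 (SD, n = 4) and at 4 days 0.978% ± 0.566 (SD, n = 4), a difference of -0.262 points (exact p = 0.543, adjusted p = 0.814). Red2Kras libraries averaged 0.847% ± 0.579 (SD, n = 8) and Confetti libraries 0.952% ± 0.335 (SD, n = 2), a difference of -0.105 points (exact p = 0.844, adjusted p = 0.844) that turned to 0.132 points without Confetti YFP. The smallest p these designs allow, with each library taken as a separate replicate, is 0.0286 for the first 2 comparisons and 0.0222 for the third. RFP was below YFP in 3 of the 4 same-numbered pairs and above it in 4 days replicate 2. The share is a share of the sorted cells, so fewer ciliated cells and more labelled AT2 cells cannot be told apart in it.

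The rule genes are described without a test, since they chose the cells. Foxj1, the forkhead factor of motile ciliogenesis, averaged 473 ± 146 CPM (range 258 to 738) and had a UMI in 82.9% of the cells, against 0.26 CPM in the other Ptprc-negative cells. Ccdc153 averaged 1837 ± 345 CPM and was present in 98.2% of ciliated cells, and Tmem212 averaged 1702 ± 442 CPM and was present in 96.4%. Rsph1, a radial spoke head protein, averaged 751 ± 231 CPM with a UMI in 91.9%. Dynlrb2 averaged 2000 ± 438 CPM with a UMI in 99.5% of ciliated cells, and 24.7 ± 15.1 CPM in the other cells, where 12.8% had a UMI. Its paralog Dynlrb1, a light chain of cytoplasmic dynein, ran the other way, at 231 ± 63.9 CPM in ciliated cells and 326 ± 127 CPM in the others, and was lower in ciliated cells in all 10 libraries.

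Against the other Ptprc-negative cells, 98.2% of which had a UMI of Sftpc, 948 of the 7420 genes with at least 20 UMIs in ciliated cells were at least 4-fold higher and higher in all 10 libraries (12.8%). This is the contrast the rule used, and its counts are a description. Over all 7420 genes the median log2 difference was 0.50. The medians of the 10 cilia lists ran from 3.42 to 6.92 on the same log2 scale.

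The transcription factors upstream of the axoneme were present unevenly. Myb, which acts during amplification of centrioles, averaged 155 ± 48.1 CPM with a UMI in 119 cells, and Rfx3 80.9 ± 39.5 CPM, Rfx2 44.7 ± 25.5 CPM and Trp73 45.5 ± 17.6 CPM were each at least 4-fold higher than in the other cells. E2f4, E2f5 and Tfdp1, partners of the multiciliation regulators that many cell types express, did not meet the criterion; E2f4 stood at 18.9 against 18.4 CPM. The earliest regulators were nearly undetected: Gmnc had a UMI in 4 cells, Mcidas in 1 and Foxn4 in 2.

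The dynein heavy chains split by isoform. All 11 axonemal heavy chains that reached 20 UMIs were higher, with Dnah12 at 310 ± 67.1 CPM, Dnah6 at 277 ± 103 CPM and Dnah5, the outer-arm chain often mutated in primary ciliary dyskinesia, at 262 ± 65.2 CPM. Dnah9 averaged 121 ± 39.7 CPM and Dnah11 81.1 ± 28.0 CPM. Dnah8 and Dnah17, heavy chains known from sperm flagella, had 1 UMI and 0 UMIs over all 222 cells. Rsph6a, the testis paralog of the radial spoke head, also had 0 UMIs, whereas Rsph9 averaged 338 ± 94.1 CPM and Rsph4a 111 ± 49.1 CPM. Among the smaller dynein chains, 11 of 13 met the criterion, Dynll1 (3016 ± 610 CPM) and Nme5 (519 ± 89.8 CPM) among them, while Dynll2 did not (145 ± 27.6 against 104 CPM). Reads of near-identical copies, such as Dnah7a and Dnah7b or Rsph3a and Rsph3b, may have been split or dropped in counting, and the levels of such genes are uncertain.

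The list of factors that assemble dynein arms in the cytoplasm was measured at 14 of 16 genes, and 12 were higher. Among them were Zmynd10 (192 ± 55.8 CPM) and Pih1d2 (183 ± 60.6 CPM). The counts include 1110017D15Rik (1309 ± 281 CPM), the highest on this list, whose role as an assembly factor is not established. The nexin-dynein regulatory complex had 10 of 11 higher, with Ccdc39, part of the ruler that sets the spacing along the axoneme, at 247 ± 76.1 CPM, Drc3 at 189 ± 78.4 CPM and Iqcg at 176 ± 85.9 CPM. The exception, Tcte1 (33.6 against 0.0014 CPM), was at 0 in 1 library. The central pair had 10 of 13 higher, with Ak7 at 219 ± 86.2 CPM, Spef2 at 213 ± 52.5 CPM, Spag6l at 188 ± 41.9 CPM and Hydin at 124 ± 47.4 CPM.

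All 23 measured genes on the list of microtubule inner proteins and tektins were higher. That list also counts the tubulins Tubb4b and Tuba1a and the tubulin-binding Tppp3, which belong to neither class. Tppp3, a tubulin-binding protein, averaged 2601 ± 577 CPM (range 1454 to 3155), Tubb4b, the main beta-tubulin of cilia, 2060 ± 644 CPM and Tuba1a 1569 ± 527 CPM, and Tekt1 averaged 293 ± 89.2 CPM. Intraflagellar transport, which carries cargo along the cilium and also serves primary cilia, had 21 of 24 higher but a smaller median log2 difference (3.5), and the other cells held these genes too: Ift43 stood at 724 ± 177 against 52.3 CPM, Traf3ip1 at 321 ± 115 against 4.32 CPM, and Ift20 at 372 ± 73.7 against 241 CPM.

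Genes of basal bodies and of the deuterosome, which amplifies centrioles, form 1 list. Its highest gene, Fam183b (1410 ± 428 CPM), is a gene of motile cilia whose place in either structure is not established. Pifo averaged 435 ± 121 CPM and Cetn2 420 ± 91.6 CPM. Deup1, the scaffold of the deuterosome, had a UMI in 12.6% of ciliated cells (32.2 CPM, against 0.0248 CPM in the other cells), Ccno in 5.86% and Cdc20b in 1 cell. Of 12 listed cell-cycle genes, 2 reached 20 UMIs and neither was higher than in the other cells, and Mki67 had a UMI in 6 cells.

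**Figure D2:**
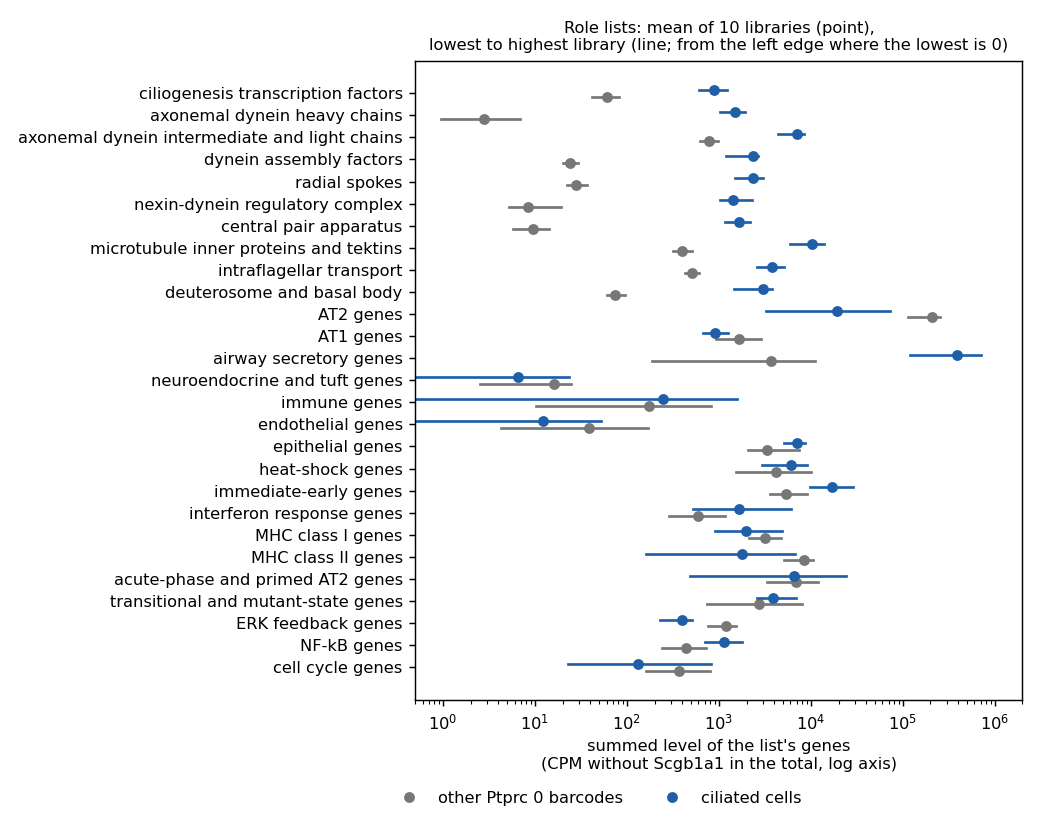
Summed level of each gene list (x axis, CPM without Scgb1a1 in the total, log axis) in ciliated cells (blue) and other Ptprc-negative cells (grey); the point is the mean of the 10 libraries and the line runs from the lowest to the highest library. The 10 cilia lists, the airway secretory list and the immediate-early list lie to the right in ciliated cells with no overlap of the lines, the AT2 and ERK feedback lists lie to the left, and the other lists drawn overlap. In ciliated cells, Scgb1a1 alone made up 379926 of the mean 386934 CPM of the airway secretory list. It is kept in that sum although it is left out of the total.

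Outside every list, the 10 genes with the largest fold among those at 100 CPM or more were Aoc1, Stk33, Fam92b, Fam81b, Ankrd65, Agr3, 4833427G06Rik, AU040972, Elmod1 and Lrriq1. Aoc1, a diamine oxidase that degrades histamine, averaged 119 ± 76.9 CPM, and Stk33, a serine/threonine kinase, 104 ± 35.2 CPM; neither had a UMI in the 30377 other cells. Fam92b, which acts at the ciliary base, averaged 239 ± 80.4 CPM against 2 UMIs in all other cells. Agr3, a protein disulphide isomerase of the airway that supports ciliary beating, averaged 192 ± 60.3 CPM against 1 UMI. AU040972 averaged 1904 ± 1507 CPM, a spread that is taken up below with the replicates.

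Markers of other cell types were counted in the ciliated cells. All 14 AT2 genes had a lower mean, with a median log2 difference of -3.12: Sftpc averaged 8633 ± 8874 CPM in ciliated cells and 111602 ± 33406 CPM in the others, and Sftpa1 2992 ± 2835 and 28055 ± 7933 CPM. In 10 of the 222 ciliated cells the AT2 genes took over 0.25 times the share that they took in the median other cell of the same library. Sftpc had a UMI in 73.3% of the Ptprc-positive barcodes, which are expected to be leukocytes that lack it, against 88.7% of ciliated cells. Of the AT1 genes, Ager (106 against 824 CPM) and Aqp5 (91.6 against 591 CPM) were lower. Mesenchymal genes had 0 UMIs in ciliated cells, and basal, neuroendocrine, tuft and endothelial genes each stayed under 20 UMIs. The summed immune genes ran from 0 to 1565 CPM per library in ciliated cells and from 10.3 to 818 CPM in the others, with 5 of 6 genes detected and Ptprc at 0 by the rule.

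Hopx was the AT1 gene that went against its list. It encodes a homeodomain-only protein used as an AT1 marker and averaged 657 ± 170 CPM in ciliated cells (range 429 to 939) against 52.4 ± 66.5 CPM in the other cells (range 14.2 to 236), with no overlap between the libraries. After thinning each cell to 2000 UMIs it was present in 66.5% of ciliated cells, 6.11% of the other Ptprc-negative cells and 7.96% of the Ptprc-positive barcodes; without thinning these shares were 89.2%, 14.6% and 20.3%.

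Of 8 measured airway secretory genes, 6 met the 4-fold criterion, beside 12.8% of all 7420 genes. Airway genes differed in how many ciliated cells held them. Scgb3a2, a secretoglobin, had a UMI in 11.1% to 42.9% of the ciliated cells of a library. Aldh1a1, a retinal dehydrogenase, was present in 73.9% of thinned ciliated cells and 0.35% of the other cells, and Cyp2f2, a cytochrome P450 of club cells, in 73.4% and 3.30%. Sox2, the transcription factor of proximal airway, averaged 106 ± 31.5 CPM against 0.24 CPM. Nkx2-1, the lung lineage factor, averaged 163 ± 57.1 CPM, below the 262 ± 80.7 CPM of the other cells in 9 of 10 libraries. Among keratins, Krt8 averaged 1615 ± 301 against 534 ± 402 CPM and was higher in all 10 libraries, as was Krt19 (719 ± 225 against 202 ± 233 CPM). Both are on the list of transitional and mutant-state genes, which are used to follow AT2 cells leaving their state, and 0 of its 10 measured genes met the 4-fold criterion.

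Other genes used to follow AT2 cells in these mice were mostly not features of ciliated cells. Itga2 had a UMI in 1 of 222 ciliated cells against 8.44% of the other cells, Spp1 in 5 cells, and Hmga2 and Dlk1 in 1 cell each. ERK feedback genes, which report MAPK signalling, had a median log2 difference of -1.39, with Spry2 at 94.0 ± 49.5 against 244 ± 129 CPM and Phlda1 at 136 ± 52.0 against 413 ± 176 CPM. Il1r1, the interleukin-1 receptor, was present in 6.42% of thinned ciliated cells and 2.77% of the other cells, and averaged 29.6 ± 10.8 against 13.5 ± 4.75 CPM.

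Cd177, a surface glycoprotein best known from neutrophils, was like Il1r1 more frequent in ciliated cells than in the other cells over all libraries. It had a UMI in 36 of 222 ciliated cells (16.2%), in every library and with between 2 and 6 such cells in each, from 7.14% (2 of 28 cells, Confetti RFP) to 60.0% (3 of 5 cells, 2 weeks RFP replicate 1). In Confetti mice it was present in 8 of 77 ciliated cells (2 of 28 and 6 of 49 in the RFP and YFP libraries) and in 0 of 7958 other Ptprc-negative cells, which allows a share of up to 0.0377% of cells with a UMI, not of cells expressing the gene, at median depths of 4000 and 3249 UMIs in the 2 libraries. In Red2Kras libraries the other cells with a UMI were mostly in 2 weeks RFP, at 7.53% and 11.7% of replicates 1 and 2, against at most 14 cells in any other library. After thinning, the shares were 6.42% of all ciliated cells, 0.815% of the other cells and 0.572% of the Ptprc-positive barcodes. The gene comparisons gave a log2 change of Cd177 in ciliated cells of -0.53 (SE 0.64) for RFP against YFP, 0.08 (SE 0.64) for 2 weeks against 4 days and 1.42 (SE 0.74) for Red2Kras against Confetti, with adjusted p = 0.998, 0.999 and 0.943 by edgeR.

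**Figure D3:**
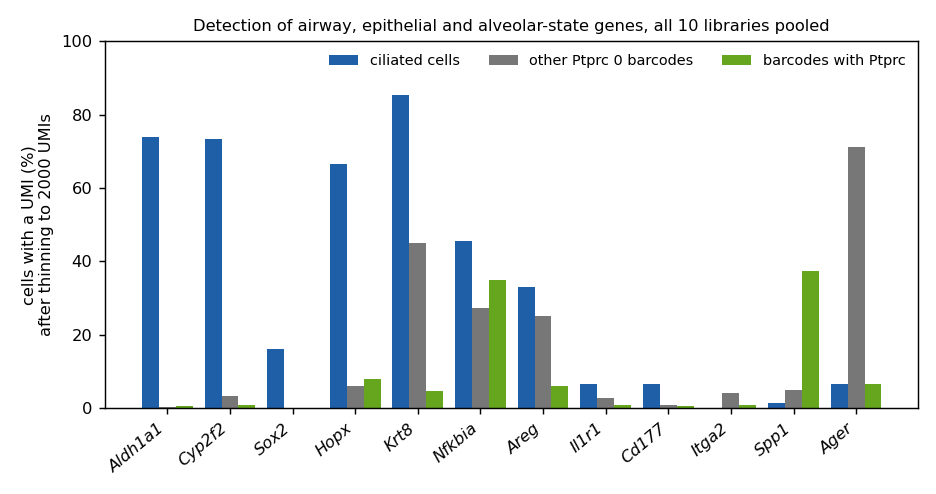
Percent of cells with a UMI after thinning to 2000 UMIs (y axis) for 12 genes (x axis), in ciliated cells (blue), other Ptprc-negative cells (grey) and barcodes with Ptprc (green), all 10 libraries pooled. Aldh1a1, Cyp2f2 and Hopx are at 73.9%, 73.4% and 66.5% in ciliated cells and at 7.96% or less in the others, whereas Ager is at 71.2% in the other cells and 6.42% in ciliated cells.

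Scgb1a1, the club cell secretory protein, divided the ciliated cells. It took a median of 0.274% of a cell's UMIs, 164 cells were under 1% and 16 had none, yet in 44 cells it took 5% or more and in 37 of those over 20%, up to 77.6%. The limit of 5% was set after the values were seen, and 7 cells lay between 2.5% and 10%. In library order the cells at 5% or more numbered 4 and 10 in Confetti RFP and YFP, 4, 9, 5 and 3 at 4 days (RFP replicates 1 and 2, YFP replicates 1 and 2) and 1, 4, 3 and 1 at 2 weeks. Every library held at least 1, and 4 days RFP replicate 2 had the largest fraction of its ciliated cells there (42.9%). Among the other Ptprc-negative cells 85 reached 5%.

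These Scgb1a1-high cells carried other secretory genes and a lower fraction of axonemal transcripts, given here as a description because the cells were split on 1 of those genes. Scgb3a2, a secretoglobin of club cells, pooled to 13049 CPM in the 44 high cells and 52.5 CPM in the 178 others, higher in all 10 libraries. Cldn10, a claudin of club cells, was 67.6-fold higher, Hp, which encodes haptoglobin, 5.51-fold and Cyp2f2 3.37-fold. Muc5b, a secreted mucin, had 42 UMIs in 8 of the high cells and 0 in the others. The high cells had a median of 9223 UMIs without Scgb1a1 against 4290, and 96 axonemal genes took 1.19% of those UMIs against 2.16%. All 5 rule genes, which chose the cells, were present in 33 of 44 high cells and 133 of 178 others, at these unequal depths. Hopx was at 630 CPM in the high cells and 647 CPM in the others, and Krt8 at 1532 and 1700 CPM. No doublet caller was run, and the part of doublets and of free RNA in the Scgb1a1-high cells was not tested.

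**Figure D4:**
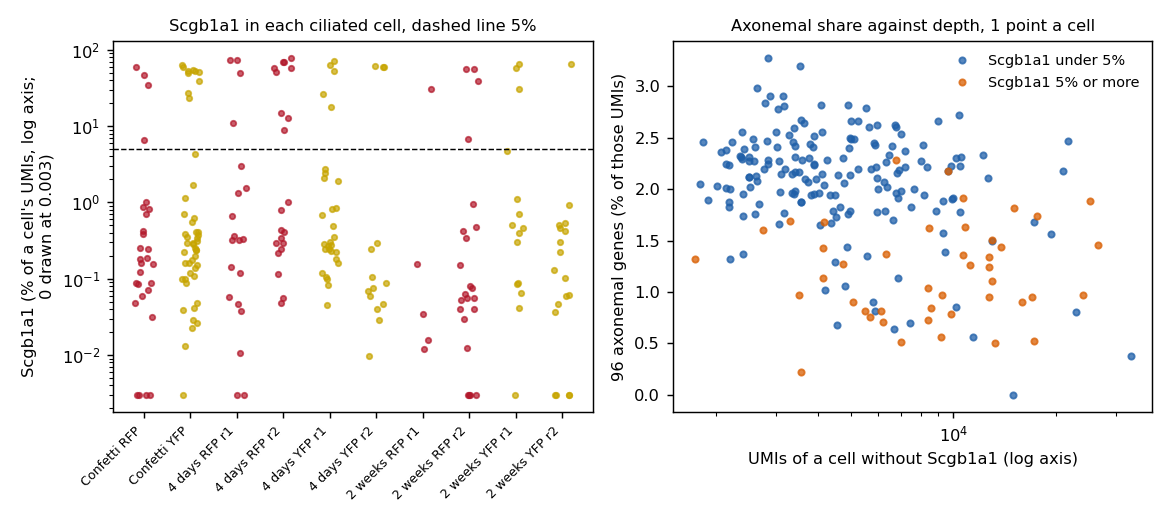
Left, percent of each ciliated cell's UMIs that are Scgb1a1 (y axis, log axis, 0 drawn at 0.003) by library (x axis), red for RFP and yellow for YFP, with a dashed line at 5%; right, percent of UMIs from 96 axonemal genes (y axis) against UMIs without Scgb1a1 (x axis, log axis), 1 point a cell. Each library has at least 1 cell at 5% or more, and the 44 such cells (orange) have a median of 9223 UMIs without Scgb1a1 against 4290 and of 1.19% axonemal UMIs against 2.16%, with overlap between the sets.

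Stress and response genes were compared with the other Ptprc-negative cells gene by gene, beside the 12.8% of all 7420 genes that met the 4-fold criterion. Of 13 measured immediate-early genes, Fos (3680 ± 1362 against 684 CPM), Atf3 (2591 ± 979 against 443 CPM), Egr1 and Klf6 met the 4-fold criterion, and the list median was 1.61. These genes are known to respond to tissue dissociation. Of 11 heat-shock genes, Hsp90aa1 (2435 ± 951 against 467 CPM) and Hsph1 (221 ± 86.1 against 21.5 CPM) met it, while Hspa1a and Hspa1b were lower in all 10 libraries. MHC class II genes, which AT2 cells express, had a median log2 difference of -1.98, with Cd74 at 1074 ± 1237 against 5820 ± 1155 CPM, and MHC class I genes of -0.86. Nfkbia, the feedback inhibitor of NF-kB, was the 1 of 6 measured NF-kB genes that met the criterion (874 ± 346 against 214 CPM), and Ifitm3 (1085 ± 1089 against 161 CPM) was the 1 of 11 interferon response genes and of 8 acute-phase genes. The heat-shock, NF-kB, interferon and acute-phase counts are near the share of all genes. Nothing particular to those lists is read from them.

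Changes with sort colour, time and line were tested on the UMIs summed over the ciliated cells of each library, with edgeR's quasi-likelihood test and Benjamini-Hochberg adjustment over 3139 genes. The library 2 weeks RFP replicate 1, with 5 cells, was left out for having under 10, so 9 libraries entered and 2 weeks RFP was represented by 1. The labels give the libraries as separate samples, and lungs were pooled. The study's methods list Confetti 1 time and each Red2Kras time point 2 times, with both colours isolated and libraries made over 2 days. They do not state outright that RFP and YFP libraries of 1 number came from the same pool, or which day each library was made. In simulated counts for the same libraries, 85.1% of genes changed by 2 on the log2 scale and 32.8% of those changed by 1 were recovered for RFP against YFP. For 2 weeks against 4 days the same test recovered 77.6% and 22.4%, and for Red2Kras against Confetti 77.6% and 17.9%. The simulation gave every gene 1 common dispersion (0.0855) and changed many genes at once, which eases the adjustment. Genes whose UMIs sit mostly in 1 cell vary more, so these rates can overstate what the real data could recover.

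Between RFP and YFP ciliated cells of Red2Kras mice, 0 of 3139 genes were called (0%) by edgeR and 0 by DESeq2, and 74 had an unadjusted p under 0.05 (2.36%). The genes with the smallest p in each direction were Rgcc (log2 change 2.06, SE 0.45), Cks2 (1.57, SE 0.43) and Cdkn1a (1.06, SE 0.30) on the higher side. On the lower side they were Reg3g (-2.45, SE 0.61), Ccp110 (-1.28, SE 0.39) and 2810474O19Rik (-1.04, SE 0.32). All of them had an adjusted p of 0.998 by edgeR; under 1 alternative each, Rgcc was called with no filter on low counts (adjusted p = 0.0044) and Reg3g with at least 4 rule genes (adjusted p = 0.0356). Cdkn1a, the p21 cell-cycle inhibitor, stood at 324, 284, 512 and 723 CPM in the RFP libraries (4 days replicates 1 and 2, then 2 weeks replicates 1 and 2) and at 236, 181, 240 and 150 CPM in the YFP libraries in the same order. The gene was named for its small p, so this separation is a description. The wildtype Confetti libraries stood at 349 (RFP) and 271 CPM (YFP), within the range of the mutant-colour libraries or just under it. The 2 weeks RFP replicate 1 value was not fitted, and 1 of its 5 cells held 34 of the 49 UMIs. Rgcc, a regulator of the cell cycle, stood at 231, 58.4, 429 and 141 CPM in RFP and at 35.2, 38.2, 31.3 and 23.1 CPM in YFP. A single cell held 23 of the 30 Rgcc UMIs in 4 days RFP replicate 1, 35 of 41 in 2 weeks RFP replicate 1 and 25 of 30 in 2 weeks RFP replicate 2. Rgcc was detected in 1 to 6 ciliated cells of any library, against 78.4% of the other cells in Confetti RFP. Without the library 4 days YFP replicate 1, 4 genes were called.

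Between 2 weeks and 4 days, 1 gene of 3139 was called (0.0319%), and 151 had an unadjusted p under 0.05 (4.81%). Reg3g, a secreted antibacterial C-type lectin, had 0 UMIs in all 84 ciliated cells at 4 days. At 2 weeks it stood at 0, 132, 407 and 992 CPM (RFP replicates 1 and 2, YFP replicates 1 and 2), a mean of 510 CPM over the 3 fitted libraries and at least 94.1-fold higher than the limit of 3 UMIs over the 4-day cells. In 2 weeks YFP replicate 2 a single cell held 81 of the 86 UMIs, and without that library the mean was 269 CPM and the bound 49.7-fold. The fitted log2 change was 9.03 (SE 0.84, adjusted p = 0.0016 by edgeR). Only 4 cells at 2 weeks held a Reg3g UMI, and in Confetti 6 cells did (208 and 131 CPM), so the call rests on few cells. The adjusted p rose to 0.288 without the Scgb1a1-high cells, 0.780 without the cells rich in AT2 genes and 0.918 with 2 rule genes as the minimum, while the log2 change stayed between 7.47 and 9.60 over the 19 alternatives. Without the library 4 days YFP replicate 1, 16 genes were called, and a fit blocked on replicate number called 9. Areg, which encodes amphiregulin, had a log2 change of 1.66 (SE 0.44) that did not pass (adjusted p = 0.940 by edgeR), and was called in 1 of 19 alternatives, with no filter on low counts (adjusted p = 4.98e-05).

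Between Red2Kras and Confetti, 1 gene was called (0.0319%) and 154 had an unadjusted p under 0.05 (4.91%). Gm47283, annotated at chrY:90784738-90816464 (GENCODE, GRCm38), was lower in Red2Kras, with a log2 change of -2.76 (SE 0.42, adjusted p = 0.0478 by edgeR). It stood at 827 and 1717 CPM in Confetti RFP and YFP and between 51.7 and 324 CPM in the 8 Red2Kras libraries, without overlap. The other Ptprc-negative cells showed the same order, at 332 and 663 CPM in Confetti and at most 284 CPM in Red2Kras. The Confetti ciliated cells whose sex could be called were all female. Counts assigned to this gene model were therefore not limited to male cells, and they are not read as Y-specific expression. The call was lost without Confetti YFP, 4 days YFP replicate 2, 2 weeks RFP replicate 2 or 2 weeks YFP replicate 2, and with 2 rule genes as the minimum (adjusted p = 0.394 by edgeR), 5 of the 19 alternatives. The log2 change of Gm47283 stayed between -3.63 and -2.10 over the 19 alternatives. A fit blocked on replicate number called 13 genes. In 4 days replicate 1 of Red2Kras, where 82.4% (RFP) and 84.0% (YFP) of the other cells called for sex were female, Gm47283 stood at 142 and 97.1 CPM in the other cells and 270 and 221 CPM in ciliated cells. In 4 days replicate 2, where 0.388% and 0.181% were female, it stood at 284 and 79.7 CPM and at 284 and 210 CPM. At 2 weeks replicate 1 (35.4% and 26.2% female) had 135 and 176 CPM in the other cells and 209 and 324 CPM in ciliated cells, and replicate 2 (0.0513% and 0.481% female) had 37.7 and 44.9 CPM and 51.7 and 104 CPM. At 2 weeks the mixed-sex libraries were above the nearly all-male ones in both colours. At 4 days this held for YFP but not for RFP. No Red2Kras library was all female as Confetti was, and mouse line, sex and sample processing cannot be fully told apart in this comparison.

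Cilia genes were counted in the same 3 comparisons. Of 111 genes on the 10 cilia lists and the rule that were tested, 0 were called in each by edgeR, and 2, 7 and 5 had an unadjusted p under 0.05 for colour, time and line, beside 2.36%, 4.81% and 4.91% of all 3139 genes; nothing particular to cilia genes is read from these counts. Their median log2 changes were 0.03, 0.20 and -0.03, beside -0.04, -0.00 and -0.01 over all genes. Foxj1 changed by -0.06 (SE 0.31) between RFP and YFP, 0.06 (SE 0.31) between 2 weeks and 4 days and -0.01 (SE 0.32) between Red2Kras and Confetti. The comparisons share libraries and are not independent of each other. MHC class II genes had list medians of -1.94, -2.59 and -1.31 over 4 genes, with 3, 4 and 0 genes below an unadjusted p of 0.05 and none called. In the same order the medians were -0.99, -5.65 and -1.77 for the 2 immune genes tested and -0.39, -0.78 and -0.17 for 13 AT2 genes, and the part of such RNA in the MHC class II values was not tested.

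**Figure D5:**
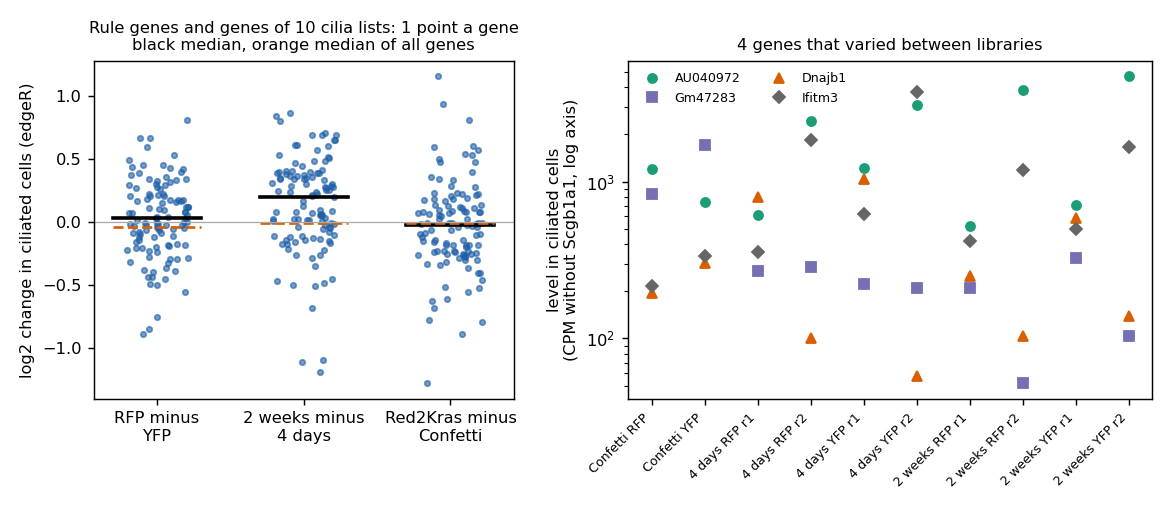
Left, edgeR log2 change (y axis) of 111 cilia genes in ciliated cells for the 3 comparisons (x axis), 1 point a gene, with their median (black) and that of all genes tested (dashed orange). Right, level (y axis, CPM without Scgb1a1, log axis) of AU040972, Gm47283, Dnajb1 and Ifitm3 in each library (x axis; r1 and r2 are replicates 1 and 2): AU040972 and Ifitm3 are higher and Dnajb1 lower in each replicate 2 than in its replicate 1.

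Over 2812 genes in the Red2Kras libraries, more were called between replicates (28) than for colour (0) or time (9) in the fit blocked on replicate number. The contrast of replicate 2 with replicate 1 was added after the data were seen. It called 28 of 2812 genes (0.996%) by edgeR over 7 libraries, the library of 5 cells left out, 17 higher and 11 lower, and 12 by DESeq2. AU040972 stood at 609, 1221, 523 and 710 CPM in the replicate 1 libraries (4 days RFP and YFP, 2 weeks RFP and YFP) and at 2445, 3082, 3824 and 4685 CPM in replicate 2 of the same groups, without overlap (log2 change 2.17, SE 0.31, adjusted p = 0.00161 by edgeR). Ifitm3, an interferon-induced membrane protein, was at 355, 623, 418 and 501 CPM in replicate 1 and 1845, 3712, 1188 and 1662 CPM in replicate 2 (log2 change 2.36, SE 0.29, adjusted p = 0.000349). Dnajb1, a heat-shock co-chaperone, was at 794, 1035, 251 and 585 CPM in replicate 1 and 100, 57.2, 103 and 138 CPM in replicate 2 (log2 change -2.90, SE 0.32, adjusted p = 0.000166). Hspa1b (-4.25, SE 0.47), Hspb1 (-2.03, SE 0.30) and Klf6 (-1.26, SE 0.27) were lower in replicate 2 as well on the log2 scale. Scgb3a1, a secretoglobin, had the smallest p (log2 change 7.44, SE 0.63, adjusted p = 3.27e-05 by edgeR and up to 0.0063 over the alternatives). A single cell held all 365 of its UMIs in 2 weeks RFP replicate 2 and all 169 in 2 weeks YFP replicate 2. Fcer1g, Tyrobp and C1qa, genes of myeloid cells, were also called but rested on at most 4 cells a library. With 1 library left out at a time the number called ran from 6 without 4 days YFP replicate 2 to 85 without 2 weeks RFP replicate 2, and with no filter on low counts it was 112 of 13580 genes. Over the alternatives the adjusted p reached 0.0851 for AU040972, 0.0542 for Ifitm3, 0.0349 for Dnajb1, 0.0759 for Hspa1b, 0.127 for Hspb1 and 0.278 for Klf6.

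Xist, the RNA of the inactive X chromosome, was among the called genes (log2 change -9.25, SE 0.78, adjusted p = 8.71e-05 by edgeR and up to 0.260 over the alternatives), with 121 to 449 CPM in replicate 1 and 0 in replicate 2. A cell counted as female when it held Xist but no UMI of Ddx3y, Eif2s3y, Kdm5d and Uty, which lie on the Y chromosome, and as male when it held any of those without Xist. In Confetti 74 of 74 called ciliated cells were female, and in the replicate 2 libraries 0 of 31. Replicate 1 pools held both sexes. At 4 days, 14 of 27 called ciliated cells were female (7 of 13 in RFP and 7 of 14 in YFP), with 22 of 49 uncalled, and 83.0% of the called other cells. At 2 weeks 9 of 11 were female (2 of 3 and 7 of 8), with 9 of 20 uncalled, and 31.6% of the called other cells. These cells come from 2 libraries at each time, and the difference between ciliated and other cells was not tested. The replicate numbers therefore differ in sex as well as in sample, and these cannot be told apart from other differences between the replicates.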

How the data were processed

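Lungs of Sftpc-CreERT2 mice were dissociated and EpCAM+ cells positive for RFP or YFP were sorted and profiled by droplet single-cell RNA-seq (10x Genomics 3′). Per the study's methods and the submitters' processing notes, the authors aligned reads to GRCm38 with Cell Ranger 3.1.0 and deposited filtered matrices of UMI counts for each library, in which empty droplets had been removed. The header of each deposited count matrix names a later release of that program, so the version is uncertain. FastQC 0.11.3 and MultiQC 1.8 are named for read quality.

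From these counts, ciliated cells were chosen per barcode as described, and their counts were summed per library. No doublet caller was run. CPM leaves Scgb1a1 out of the total, a choice made after seeing the data, since that transcript took up to 77.6% of a cell's UMIs. Thinned shares draw 2000 UMIs from each cell and leave out shallower cells. Sex was called from UMIs of Xist and 4 Y-linked genes. Gene tests used edgeR 4.0.16 (TMM, filterByExpr, quasi-likelihood F test, Benjamini-Hochberg at 0.05) in R 4.3.3, with state and mutant label as terms in 1 fit over the 9 libraries with at least 10 ciliated cells. DESeq2 1.42.0 was an alternative, and the fit was tested on simulated counts. Shares were compared with exact permutation tests over libraries (scipy 1.17.1).

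Named genes were the 5 rule genes, the 3 genes of each list with the highest mean CPM, the 10 largest folds outside the lists among genes at 100 CPM or more, the genes called in each comparison or the 3 smallest p per direction, markers of other cell types, and Dynlrb1. Other genes of the lists, the replicate contrast and genes in the Scgb1a1 split were named after their values were seen. The members and the 30 lists were chosen with earlier results of these data known.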

Additional observations from a re-analysis of the deposited data

Results flagged for a closer look

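Single libraries that stood apart from the rest of their group were searched for with Dixon's test at its 95% limit over 96 sets of values, of which about 1 in 20 is expected to pass by chance. In 2 weeks RFP replicate 1, which held 5 ciliated cells, the median depth of 22982 UMIs stood apart both among the Red2Kras RFP libraries and among all 10. Sftpc in its ciliated cells stood at 32422 CPM, apart in the same sets. Fam183b (387 CPM) and 1110017D15Rik (648 CPM) were lowest there among all 10 libraries. In 4 days RFP replicate 2, 42.9% of ciliated cells had Scgb1a1 at 5% of UMIs or more, apart in both sets, and Retnla, which encodes a resistin-like secreted protein, stood at 10182 CPM among the Red2Kras RFP libraries. In 4 days YFP replicate 2, Dynlrb1 stood at 401 CPM and Ifitm3 at 3712 CPM. In 2 weeks RFP replicate 2, Areg stood at 2001 CPM.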

How the results depend on the processing

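The share comparisons kept their direction and stayed above 0.05 under every alternative that was run (at least 2 or 4 rule genes, thinning, all filtered barcodes as denominator, cells rich in AT2 genes or Scgb1a1 left out), except that Red2Kras minus Confetti turned to 0.132 points without the Confetti YFP library. With 1 Confetti library left out, or with sign flips of the same-numbered pairs (16 flips), a p under 0.05 was not possible. Those p-values therefore say nothing about stability. Leaving out 1 library at a time gave -0.515 to -0.102 for RFP minus YFP, -0.550 to -0.0586 for 2 weeks minus 4 days and -0.342 to 0.132 for Red2Kras minus Confetti. The correlation of replicate differences between Red2Kras groups ran from -0.211 to 0.435. The 2 of 6 pairs of groups under 0.1 were both between times. Between the colours of 1 time it was 0.435 at 4 days and 0.30 at 2 weeks. The female share of other cells was 82.4% (RFP) and 84.0% (YFP) in 4 days replicate 1 and 35.4% and 26.2% in 2 weeks replicate 1, and replicate 2 was nearly all male in both colours. The main tests took each library as a separate replicate. If the colours of 1 number shared a pool of lungs, which the study's methods do not state outright, the comparisons by time and line hold fewer independent replicates than libraries. With the replicate block the share differed by -0.299 (exact sign-flip p = 0.5), and 0, 9 and 13 genes were called for RFP minus YFP, 2 weeks minus 4 days and Red2Kras minus Confetti.

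The gene counts, in the same order against 0, 1 and 1, moved with the filter and the libraries: DESeq2 called 0, 2 and 2, no filter on low counts 17, 52 and 33, and libraries with at least 20 ciliated cells 2, 24 and 29. At least 4 rule genes gave 1, 1 and 2, and at least 2 gave 0, 0 and 0. The Reg3g call was lost (0 genes) with at least 2 rule genes, without cells rich in AT2 genes and without Scgb1a1-high cells, with its log2 change at 7.47 to 9.60 over all alternatives. Leaving out 1 library at a time gave 0 to 4, 1 to 16 and 0 to 2. The highest counts came without 4 days YFP replicate 1 (4 and 16), and 4 days RFP replicate 1 gave 1, 3 and 2. Gm47283, with its log2 change at -3.63 to -2.10 over all alternatives, was no longer called with at least 2 rule genes or without Confetti YFP, 4 days YFP replicate 2, 2 weeks RFP replicate 2 or 2 weeks YFP replicate 2. The cause was not tested.

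The profile count of 948 became 932 (929 shared) with at least 4 rule genes, 919 (884 shared) without cells rich in AT2 genes, 747 (713 shared) without Scgb1a1-high cells and 770 with Scgb1a1 in the totals. With 5 to 49 cells a library, the low-count genes cannot be resolved.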

Other observations

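Cbr2 and Aldh1a1 had a UMI in most ciliated cells both with and without high Scgb1a1. Gsta3 had a UMI in 32 of the 44 Scgb1a1-high cells and 17 of the 178 others. Cbr2, a carbonyl reductase, pooled to 7421 CPM in the 44 Scgb1a1-high ciliated cells and 5232 CPM in the 178 others, and Aldh1a1 to 1014 and 766 CPM. Mgst1, a microsomal glutathione transferase, and Gsta3, a cytosolic one, were further apart, at 2181 against 435 CPM and 258 against 30.3 CPM. Dmkn, which encodes dermokine, and Cby1, a protein of the ciliary base, ran the other way, at 200 against 614 CPM and 33.6 against 101 CPM. These genes were named after their values were seen, and the differences were not tested.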
